A study of Mus musculus with 16 samples.

Results

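The genes described here are Rad9a and its partners in the ATR branch of the DNA replication checkpoint, which were Rad9a, Rad1, Hus1, Rad17, Atr, Atrip, Topbp1, Chek1 and Clspn. They were found by gene name in the 3 deposited count tables, and all 9 were present among the 52525 genes listed in every table. The set was chosen by the crypt counts of Rad9a, which were low in Cul4b-deficient mice, so the KO against WT values of Rad9a in the crypts are given as a description without a test. The other values of the 9 genes were tested with all genes of their table.

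When a replication fork stalls, single-stranded DNA coated by RPA recruits the kinase ATR through its partner ATRIP. RAD17, together with small RFC subunits, loads a ring-shaped clamp made of RAD9A, RAD1 and HUS1 at the junction between single- and double-stranded DNA. The clamp brings in TOPBP1, which activates ATR, and ATR phosphorylates the effector kinase CHK1 (gene Chek1) with the help of the adaptor Claspin (gene Clspn). CHK1 slows origin firing and entry into mitosis, and the intestinal crypt, with its rapidly dividing progenitors, is a tissue in which this pathway is in regular use. CUL4B is the scaffold of a ubiquitin ligase.

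Cul4b was deleted in 3 mouse experiments on a C57BL/6 background, each with its own table. In the first, small intestinal crypts of pVillin-Cre; Cul4bfn/Y mice (KOIEC, n = 4), in which Cre is driven by the Villin promoter of the intestinal epithelium, were compared with Cul4bfn/Y mice without Cre (WT, n = 4). In the second, organoids grown from crypts of KOIEC mice (n = 2) were compared with WT organoids (n = 2). In the third, organoids of CAG-CreERT2; Cul4bfn/Y mice (KOCAG, n = 2), in which a broadly active promoter drives a tamoxifen-inducible Cre, were treated with tamoxifen and then sequenced. They were compared with WT organoids (n = 2), whose Cre status and tamoxifen exposure are not given in the sources used here. Villi had been scraped off before the crypts were released with EDTA. The labels give no age for the mice, and the study's methods state that most experiments used adult animals. The study's methods call the libraries biological replicates, while the labels do not tie each one to a mouse or culture, so p-values measure the spread between these libraries.

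Total counts per library were 9311734 to 13479974 in the crypts, 15006730 to 16881395 in the KOIEC organoid experiment and 7348191 to 10462275 in the KOCAG organoid experiment. A floor of 3 counts corresponded to 0.178 to 0.408 CPM (counts per 1000000 counts of a library), which covers counting error only. Cul4b itself averaged 33.9 ± 3.01 CPM (SD, n = 4) in WT and 1.43 ± 0.632 CPM in KOIEC crypts, and its log2 fold change was -5.50 in KOIEC and -4.02 in KOCAG organoids, so the labels fit the deleted gene in all 3 experiments. The 5 epithelial markers summed to at least 5064 CPM in every library, whereas 8 fibroblast and muscle markers summed to at most 7.68 CPM. T-cell and other immune markers (8 genes) summed to 27.3 to 127 CPM in WT crypts and 59.7 to 393 CPM in KOIEC crypts, and to at most 3.08 CPM in organoids. Mitochondrial ribosomal RNA ranged from 18.9 to 2873 CPM among the crypt libraries and was not balanced between genotypes. It was at 23.4, 2840, 2873 and 834 CPM in WT replicates 1 to 4, with replicates 2 and 3 highest. In KOIEC replicates 1 to 4 it was at 18.9, 20.4, 25.2 and 1078 CPM.

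Promoters are shown for Atr and Chek1, the members that were called lower in KOCAG organoids, and for Topbp1 and Clspn, whose levels followed those of Chek1 most closely across libraries. The sequences are from RefSeq (GRCm38.p6), run from 250 bases before to 50 bases after an annotated start, and are written 5′ to 3′ on the gene's strand. Entries were found for 8 of the 9 members, all but Rad9a. Capitals mark an E2F-type octamer, searched as TTTGGCGC, TTTGCCGC, TTTCGCGC and TTTCCCGC on both strands.
Atr (chr9:95857347-95857646, + strand): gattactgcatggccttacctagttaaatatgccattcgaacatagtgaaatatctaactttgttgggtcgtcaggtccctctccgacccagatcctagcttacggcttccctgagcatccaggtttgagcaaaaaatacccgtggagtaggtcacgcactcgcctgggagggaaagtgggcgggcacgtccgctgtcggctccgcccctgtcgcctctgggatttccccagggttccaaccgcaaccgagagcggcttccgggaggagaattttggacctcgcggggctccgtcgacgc
Topbp1 (chr9:103305077-103305376, + strand): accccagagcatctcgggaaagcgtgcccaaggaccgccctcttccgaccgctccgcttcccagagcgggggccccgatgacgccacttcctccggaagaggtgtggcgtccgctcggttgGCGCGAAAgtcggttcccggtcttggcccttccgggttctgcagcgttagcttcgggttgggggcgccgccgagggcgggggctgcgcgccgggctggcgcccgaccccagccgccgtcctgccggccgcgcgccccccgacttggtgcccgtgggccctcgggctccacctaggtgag
Chek1 (chr9:36726609-36726908, - strand): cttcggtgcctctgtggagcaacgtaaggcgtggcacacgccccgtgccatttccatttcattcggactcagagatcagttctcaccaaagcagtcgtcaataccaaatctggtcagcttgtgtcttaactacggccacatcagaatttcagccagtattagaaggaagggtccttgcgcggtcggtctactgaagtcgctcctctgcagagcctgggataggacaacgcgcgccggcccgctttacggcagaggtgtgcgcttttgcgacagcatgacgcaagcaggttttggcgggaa
Clspn (chr4:126556730-126557029, + strand): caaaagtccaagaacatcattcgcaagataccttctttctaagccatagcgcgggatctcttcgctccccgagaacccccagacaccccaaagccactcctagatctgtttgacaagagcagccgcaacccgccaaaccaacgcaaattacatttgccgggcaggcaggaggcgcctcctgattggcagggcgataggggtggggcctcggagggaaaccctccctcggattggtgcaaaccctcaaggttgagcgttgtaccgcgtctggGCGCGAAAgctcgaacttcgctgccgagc
One of these octamers was found in the promoters of 2 of the 8 members, Topbp1 (first base at position 122) and Clspn (first base at position 272), in both as GCGCGAAA, the reverse complement of TTTCGCGC. Any of the 4 octamers occurred in 2.26% of the 32851 promoters in the table. Octamers that run past the end of a sequence were not searched. The Chek1 sequence ends in gcgggaa, the first bases of GCGGGAAA (the reverse complement of TTTCCCGC), so a match there was left undecided. A match is a description of the letters only.

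Rad9a, the subunit that gives the clamp its TOPBP1-binding tail, was lower in KOIEC than in WT crypts in every library. The gene lies at chr19:4195198-4201603 on the minus strand (positions as deposited with the counts). In GENCODE M21 on GRCm38 it runs from 4195196 to 4201662. Start and end were the same as in M21 for 95.2% of the crypt genes found there. The counts of Rad9a were 46, 41, 64 and 53 in the WT crypt libraries and 3, 11, 7 and 1 in the KOIEC crypt libraries. As CPM scaled by TMM (edgeR's correction for library composition, used from here on), the WT libraries were at 4.12, 3.87, 5.12 and 4.26 and the KOIEC libraries at 0.317, 0.840, 0.742 and 0.0919. The groups did not overlap, and KOIEC replicates 1 and 4 were at or under the floor of 3 counts. The means were 4.34 ± 0.543 CPM in WT and 0.498 ± 0.353 CPM in KOIEC (SD, n = 4 each), a fitted log2 fold change of -3.07 (SE 0.44). Pooled over libraries, 22 of 44259497 counts in KOIEC against 204 of 45496741 in WT gave a ratio of 0.111, which is a description only. A log2 fold change of -3 or lower was found for 4 genes of 13427 tested in the crypts (0.0298%), Rad9a and Cul4b among them. Rad9a was chosen by this value, so the share is a description and not a test. In the KOIEC and KOCAG organoids 0.129% and 0.0735% of tested genes were that low. Without WT replicates 2 and 3, the libraries with most mitochondrial ribosomal RNA, the log2 fold change of Rad9a was -3.03.

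Rad9a did not show this difference in either organoid experiment. In the KOIEC organoid experiment the WT libraries were at 17.8 and 19.8 CPM and the KOIEC libraries at 17.9 and 11.6 CPM. Only KOIEC replicate 2 lay below the WT libraries, and the log2 fold change was -0.35 (SE 0.29, adjusted p = 0.856, edgeR). In the KOCAG organoid experiment the WT libraries were at 17.6 and 16.2 CPM and the KOCAG libraries at 15.3 and 20 CPM. The KOCAG libraries lay on both sides of the WT libraries, with a log2 fold change of 0.076 (SE 0.17, adjusted p = 0.766, edgeR) that turned to -0.15 without KOCAG replicate 2. The difference between the crypt and organoid effects on Rad9a was not tested, since the crypt contrast chose the gene; between the 2 organoid experiments the log2 fold changes differed by -0.40 (SE 0.50, adjusted p = 0.828, edgeR).

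**Figure D1:**
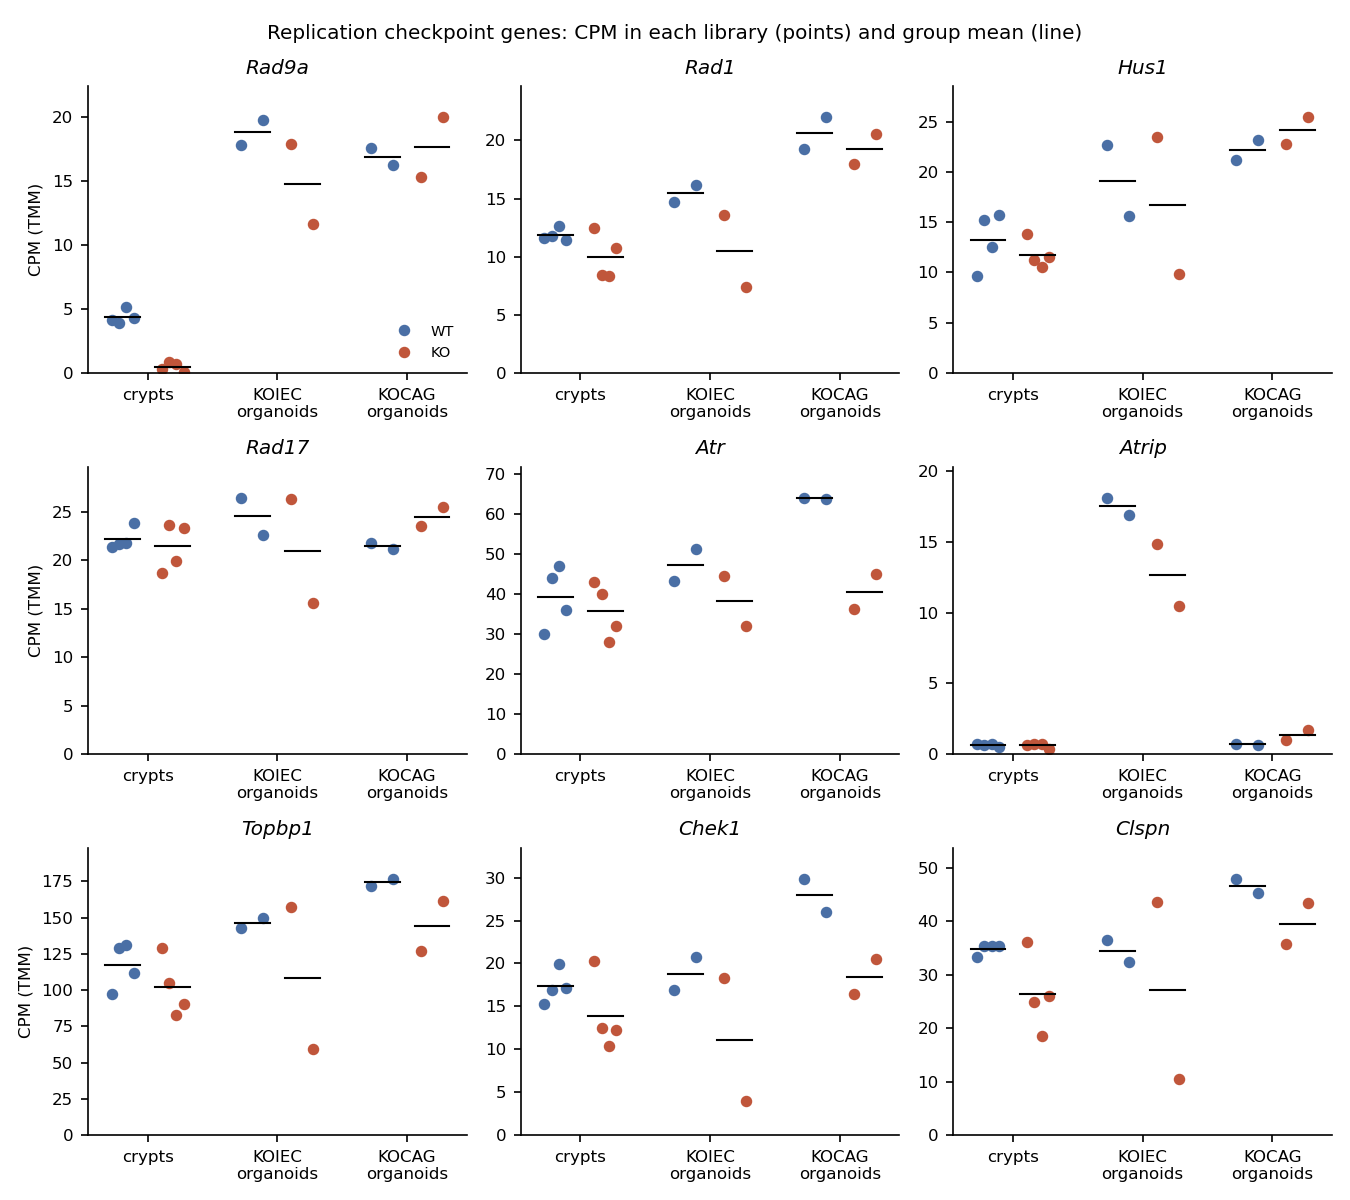
CPM (TMM-scaled, linear axes from 0) of the 9 genes in each library, as points, with the group mean as a line, for WT and KO libraries of the crypts (n = 4 and 4), KOIEC organoids (n = 2 and 2) and KOCAG organoids (n = 2 and 2). Rad9a in KOIEC crypts sits at 0.0919 to 0.840 CPM, below the WT crypts at 3.87 to 5.12 CPM; in the KOIEC organoids KO replicate 2 is the lowest of the 4 libraries for all 9 genes.

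The crypt level of Rad9a was low in WT as well, and it shared this with its neighbours on the chromosome. Levels relative to total counts were set side by side across tables, which were prepared separately, so these ratios carry no test. Rad9a had 4.46 CPM in WT crypts against 18.1 CPM in WT organoids (mean of the 2 experiments). This was a log2 ratio of -1.99 with 0.1 CPM added to each level. The ratios of Rad1, Hus1, Rad17, Atr, Topbp1, Chek1 and Clspn lay between -0.62 and -0.034. That of Atrip was lower than that of Rad9a, at -3.62 (0.664 against 9.26 CPM), but its organoid mean joins 2 gene models, described below. With the gene model of the crypts, WT organoids of the KOCAG experiment were at 0.685 CPM (TMM-scaled), near the crypt level. With the other gene model, WT organoids of the KOIEC experiment were at 17.5 CPM. The median ratio was -0.10 over 10405 genes with at least 5 CPM in WT organoids of both experiments. Ratios below -2 were found for 3.40% of these genes.

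Cdk2ap2 and Pitpnm1, which lie within 100 kb on one side of Rad9a, had 0 counts in all 8 crypt libraries. In the organoid libraries of both experiments their counts were 359 to 1784 for Cdk2ap2 and 168 to 577 for Pitpnm1. Ppp1ca, a catalytic subunit of protein phosphatase 1, is the nearest neighbour that was tested on that side and overlaps Rad9a by 222 bases on the other strand. Its counts were 239, 160, 236 and 116 in WT crypts and 116, 210, 102 and 77 in KOIEC crypts, against 1772 to 4392 in the organoid libraries. Whether the counting used strand is not given in the sources used here, so reads in the overlap of Rad9a and Ppp1ca cannot be told apart. On the other side Pold4, a subunit of DNA polymerase delta, had 148 to 388 counts in the organoids. In the crypts its counts were 8, 6, 10 and 68 in WT and 8, 151, 4 and 9 in KOIEC, so a single library stood far above the others in each group. Beyond it, Ssh3, the nearest gene tested on that side, had 735 to 1159 counts in the crypts and 458 to 953 in the organoids.

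Of the 10 genes within 100 kb that reached 5 CPM in WT organoids, 6 had a crypt-to-organoid log2 ratio below -2, and their median was -2.98. The same median over the neighbours of Rad1, Rad17, Atr, Atrip, Topbp1, Chek1 and Clspn lay between -0.25 and 0.35, each from 1 to 6 neighbours, and Hus1 had no such neighbour. Among 5549 genes with at least 3 such neighbours, a median below -2 was found for 72 (1.30%). Of 20 neighbours 6 passed the filter in the crypts and 0 were called between WT and KOIEC, against 6.96% of all tested genes. Lower means in KOIEC were found for 5 of these 6, and the log2 fold changes ran from -0.79 (Tmem134) to 0.49 (Coro1b), their median being -0.21. The difference between Rad9a and its neighbours was not tested. Ppp1ca had a log2 fold change of -0.48 (SE 0.30, adjusted p = 0.284, edgeR) and Ssh3 of -0.081 (SE 0.10, adjusted p = 0.611, edgeR). Fold changes of at least 2 in either direction were found for 7 of the 39 other tested genes in such low surroundings (17.9%) and for 3.41% of 5462 tested genes elsewhere; all 7 were higher in KOIEC, since the lowest value in low surroundings apart from Rad9a was -0.79. The part of the low surroundings in the crypt difference of Rad9a was not tested.

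**Figure D2:**
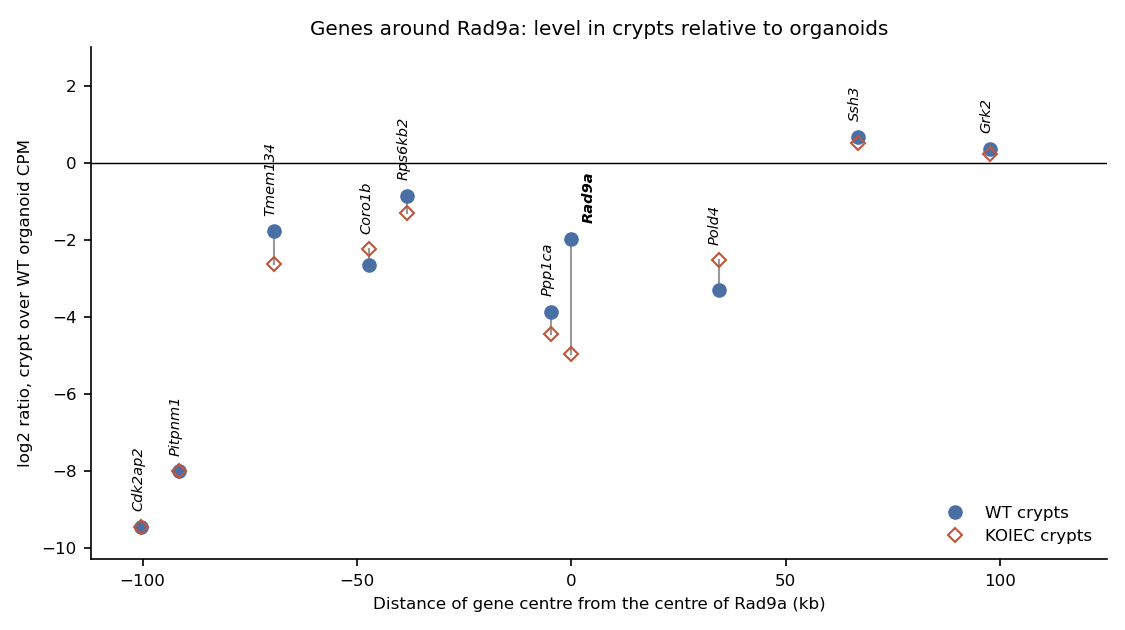
The log2 ratio of crypt level to WT organoid level (CPM of total counts, 0.1 added) against the distance in kb of each gene's centre from that of Rad9a, for Rad9a and 9 neighbours with at least 5 CPM in WT organoids of both experiments. Filled circles are WT crypts (mean of 4) and open diamonds KOIEC crypts (mean of 4), joined by a line for each gene; Rad9a is at -1.99 in WT and -4.98 in KOIEC, Cdk2ap2 and Pitpnm1, at 0 counts, lie at -9.47 and -8.02 in both, and Ssh3 and Grk2 lie above 0.

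In KOCAG organoids 11 neighbours were tested and 5 were called, all higher: Pitpnm1 (log2 fold change 1.34, SE 0.13, adjusted p = 7.8e-05, edgeR), Clcf1 (2.24, from 0.699 to 3.32 CPM), Grk2 (0.32), Cdk2ap2 (0.28) and Coro1b (0.25). Over all genes tested in KOCAG organoids 31.5% were called and 18.1% were called higher. In KOIEC organoids 0 of 12 tested neighbours were called, against 0.00717% of all tested genes.

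The 2 other subunits of the clamp, Rad1 and Hus1, were not called in any experiment. Rad1 was at 11.6, 11.8, 12.6 and 11.4 CPM in WT crypts and 12.5, 8.40, 8.38 and 10.8 CPM in KOIEC crypts. Only KOIEC replicate 1 of Rad1 fell within the WT range, and the log2 fold change was -0.25 (SE 0.16, adjusted p = 0.306, edgeR). Hus1 was at 9.67, 15.2, 12.6 and 15.7 CPM in WT and 13.8, 11.2, 10.5 and 11.5 CPM in KOIEC crypts, all within the WT range (log2 fold change -0.17, SE 0.18, adjusted p = 0.517, edgeR).

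In KOIEC organoids Rad1 went from 15.4 ± 0.980 to 10.5 ± 4.38 CPM (n = 2 each, log2 fold change -0.56, SE 0.36, adjusted p = 0.856, edgeR) and Hus1 from 19.1 ± 4.97 to 16.7 ± 9.64 CPM. In KOCAG organoids Rad1 averaged 20.7 ± 1.95 CPM in WT against 19.3 ± 1.87 CPM in KOCAG (log2 fold change -0.092, adjusted p = 0.672, edgeR), and Hus1 22.2 ± 1.41 against 24.1 ± 1.90 CPM (0.13, adjusted p = 0.507, edgeR).

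Relative to gene length, the WT means of the clamp subunits had the same order in crypts and organoids, and Rad9a stood further above Hus1 in the organoids. In WT organoids Rad9a stood at 9.18 CPM per kb in the KOIEC and 8.26 CPM per kb in the KOCAG experiment, above Hus1 (2.96 and 3.44 CPM per kb) and Rad1 (2.09 and 2.79 CPM per kb), beyond the spread of the replicates. In WT crypts Rad9a stood at 2.12 ± 0.265 CPM per kb and Hus1 at 2.06 ± 0.428 CPM per kb, which did not differ beyond their spread, with Rad1 at 1.60 ± 0.0719 CPM per kb. In KOIEC crypts Rad9a, at 0.243 ± 0.173 CPM per kb, was the lowest of the clamp genes.

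Rad17, the clamp loader, had the crypt log2 fold change nearest 0 among the members tested. Its levels were 21.3, 21.7, 21.7 and 23.8 CPM in WT and 18.7, 23.7, 19.9 and 23.3 CPM in KOIEC, with overlapping groups (log2 fold change -0.046, SE 0.11, adjusted p = 0.799, edgeR). In KOCAG organoids both KOCAG libraries (23.5 and 25.5 CPM) were above both WT libraries (21.8 and 21.1 CPM), a log2 fold change of 0.19 (SE 0.13, adjusted p = 0.291, edgeR) that was not called. In KOIEC organoids its log2 fold change was -0.23 (SE 0.32).

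Atr, the apical kinase, was lower in KOCAG organoids. It was at 64.1 and 63.9 CPM in WT and at 36.1 and 45.0 CPM in KOCAG, without overlap (log2 fold change -0.65, SE 0.12, adjusted p = 0.00221, edgeR). In the crypts its levels were 29.9, 43.9, 47.0 and 36.0 CPM in WT and 42.9, 40.0, 28.1 and 32.1 CPM in KOIEC, overlapping widely (-0.13, SE 0.18, adjusted p = 0.628, edgeR). In KOIEC organoids it was at 43.2 and 51.2 CPM in WT and 44.5 and 32.0 CPM in KOIEC (-0.30, SE 0.23, adjusted p = 0.856, edgeR). The crypt and KOCAG effects on Atr differed by 0.53 on the log2 scale (SE 0.29, adjusted p = 0.425, edgeR), so a difference between experiments was not shown.

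Atrip, the partner of ATR, could be tested in the KOIEC organoids only. Its gene model spans chr9:109057933-109074124 in the KOIEC organoid table and begins at 109059747 in the other 2 tables, where a second protein-coding gene on the same strand, Gm42641, covers nearly the whole of it. Atrip had 155 to 315 counts in the KOIEC organoid experiment, 4 to 9 counts in the crypts and 5 to 18 counts in the KOCAG experiment, and it did not pass the filter in the last 2. Its KOCAG libraries (7 and 18 counts) lay above its WT libraries (6 and 5 counts) there. In the KOIEC organoid experiment it was at 18.1 and 16.9 CPM in WT and 14.9 and 10.5 CPM in KOIEC, without overlap but not called (log2 fold change -0.47, SE 0.27, adjusted p = 0.856, edgeR).

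Topbp1, the activator of ATR, had the highest level of the 9 genes per length in every group, with 10.4 ± 1.43 CPM per kb in WT crypts. It was at 97.0, 129, 131 and 112 CPM in WT and 129, 105, 83.0 and 90.6 CPM in KOIEC crypts, with overlap (log2 fold change -0.20, SE 0.15, adjusted p = 0.384, edgeR). In KOCAG organoids both libraries (127 and 161 CPM) lay below WT (172 and 177 CPM), a log2 fold change of -0.27 (SE 0.11, adjusted p = 0.0840, edgeR) that missed the threshold. In KOIEC organoids replicate 1 was at 157 CPM, above both WT libraries (143 and 150 CPM), and replicate 2 at 59.5 CPM.

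Chek1, the effector kinase, was the second member called in KOCAG organoids. Its levels were 29.9 and 26.0 CPM in WT and 16.4 and 20.5 CPM in KOCAG, without overlap (log2 fold change -0.59, SE 0.15, adjusted p = 0.0151, edgeR). In the crypts it was at 15.3, 16.9, 19.99 and 17.1 CPM in WT and 20.3, 12.5, 10.4 and 12.2 CPM in KOIEC, where replicate 1 was above all WT libraries and the other 3 below (-0.32, SE 0.21, adjusted p = 0.299, edgeR). In KOIEC organoids it was at 16.9 and 20.7 CPM in WT, and at 18.3 and 3.92 CPM in KOIEC replicates 1 and 2 (-0.76, SE 0.71, adjusted p = 0.856, edgeR).

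Clspn, which encodes the adaptor Claspin, showed the same order of crypt libraries as Chek1 in KOIEC, except that replicates 2 and 4 changed places. It was at 33.3, 35.4, 35.4 and 35.4 CPM in WT crypts and 36.2, 24.9, 18.5 and 26.0 CPM in KOIEC crypts (log2 fold change -0.40, SE 0.18, adjusted p = 0.148, edgeR). KOIEC replicate 1 was above all WT libraries and the other 3 below. In KOIEC organoids it was at 36.5 and 32.5 CPM in WT and 43.6 and 10.5 CPM in KOIEC. In KOCAG organoids it was at 47.9 and 45.2 CPM in WT and 35.7 and 43.4 CPM in KOCAG, without overlap (-0.23, SE 0.12, adjusted p = 0.168, edgeR).

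**Figure D3:**
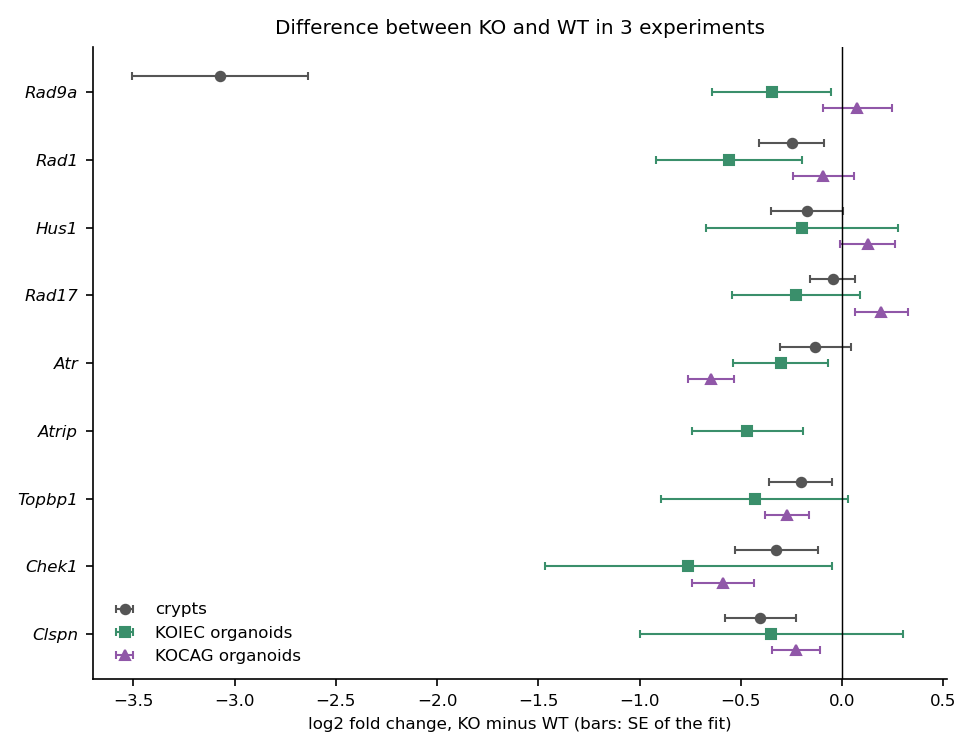
The log2 fold change (KO minus WT) of each gene in the crypts (circles), KOIEC organoids (squares) and KOCAG organoids (triangles), with bars for the SE of the fit; a vertical line marks 0. Rad9a in the crypts, at -3.07, stands apart from the other values, which lie between -0.76 and 0.19, and Atrip has a value in the KOIEC organoids only.

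Counted together, 0 of the 7 members tested in the crypts other than Rad9a were called, against 6.96% of 13427 genes called in either direction and 2.66% called lower. All 7 had a lower mean in KOIEC, with a median log2 fold change of -0.20 against -0.011 over all tested genes. At an unadjusted p under 0.05 there was 1, Clspn, against 4287 of the 13427 genes. DESeq2 called 0 of the 7, against 18.5% of all genes. The groups overlapped for all 7, whereas 8.79% of genes had every KOIEC library below every WT library and 8.70% every one above. Genes called higher made up 4.30%. Without KOIEC replicate 1, the KOIEC library with the highest sum of cycling markers, 2 of the 7 were called, Chek1 and Clspn, both lower. In that fit 18.0% of all genes were called and 7.87% were called lower. In KOIEC organoids 0 of 9 were called, against 0.00717% of 13938 genes, a single gene, Cul4b. DESeq2 called 0 of the 9, against 27 of all genes. At an unadjusted p under 0.05 there were 0, against 650 of all genes. Without KOIEC replicate 1 the remaining KOIEC library, replicate 2, gave 4 calls (Rad1, Topbp1, Chek1 and Clspn), under the assumption that it varies like WT, and 15.8% of all genes were called in that fit. All 9 had lower means (median -0.35 against -0.010), and 2 of 9, Rad1 and Atrip, had both KOIEC libraries below both WT libraries, against 19.4% of all genes. In KOCAG organoids 2 of the 8 tested, Atr and Chek1, were called, both lower, against 31.5% of 13598 genes called, 13.4% lower and 18.1% higher. The share of members called in either direction was thus no higher than among all genes. Without WT replicate 1 only Atr was called (19.8% of all genes), and without KOCAG replicate 2 there were 4, with Topbp1 and Clspn added (36.8% of all genes). In 1 fit of all 16 libraries, whose spread is shared with the other experiments, neither Atr nor Chek1 was called (adjusted p = 0.137 and 0.512, edgeR). The median of the 8 was -0.16 against 0.0012. Both KOCAG libraries lay below both WT libraries for 4 of the 8, against 34.2% of all genes, and above them for 1, Rad17, against 35.5%.

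For 0 of the members did the effect of the deletion differ between 2 experiments (edgeR, 1 fit of all 16 libraries, Rad9a left out where the crypts are involved), against 0.00642% of 15585 genes for crypts against KOIEC organoids, 0.372% for crypts against KOCAG organoids and 0.385% for KOIEC against KOCAG organoids. At an unadjusted p under 0.05 there was 1, Atrip between the organoid experiments (adjusted p = 0.278, edgeR), for which the gene models differ between tables. Without KOIEC organoid replicate 1, 1 member differed between crypts and KOIEC organoids (Chek1) and 1 between the organoid experiments (Clspn), against 151 and 669 of 16517 genes.

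The levels of Topbp1, Clspn and Chek1 in particular moved with those of cycling-cell markers. The 8 cycling-cell markers (such as Mki67 and Top2a) summed to 1267 to 1654 CPM in WT and 923 to 1556 CPM in KOIEC crypts, where replicate 1 was the highest of the KOIEC libraries. In KOIEC organoids they summed to 1478 CPM in replicate 1 and 533 CPM in replicate 2, against 1287 and 1317 CPM in WT. In KOCAG organoids they summed to 862 and 1133 CPM, against 1377 and 1407 CPM in WT. None of the 8 markers was at 0 in every library of a group. In bulk RNA, fewer cycling cells and less RNA per cell cannot be told apart.

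Over the 16 libraries, with log2 CPM centred on the mean of each experiment, Pearson's r with the mean of the cycling markers was 0.97 for Topbp1, 0.95 for Clspn, 0.94 for Chek1, 0.88 for Rad1, 0.79 for Atr, 0.75 for Hus1, 0.56 for Rad17 and 0.45 for Rad9a. The closest pair among the members was Topbp1 and Chek1 (r = 0.97), followed by Chek1 and Clspn (r = 0.95), and Rad9a had its closest partner in Clspn (r = 0.36). These correlations are descriptions; their points share experiments, libraries and genotypes. With the cycling marker score as a covariate, the log2 fold changes in KOCAG organoids were -0.30 for Atr (adjusted p = 0.318, edgeR) and -0.23 for Chek1 (adjusted p = 0.644, edgeR), and neither was called. With 2 libraries a group this fit leaves 1 residual degree of freedom. In the crypts the log2 fold changes with this covariate were -3.18 for Rad9a, 0.32 for Atr and 0.12 for Chek1.

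**Figure D4:**
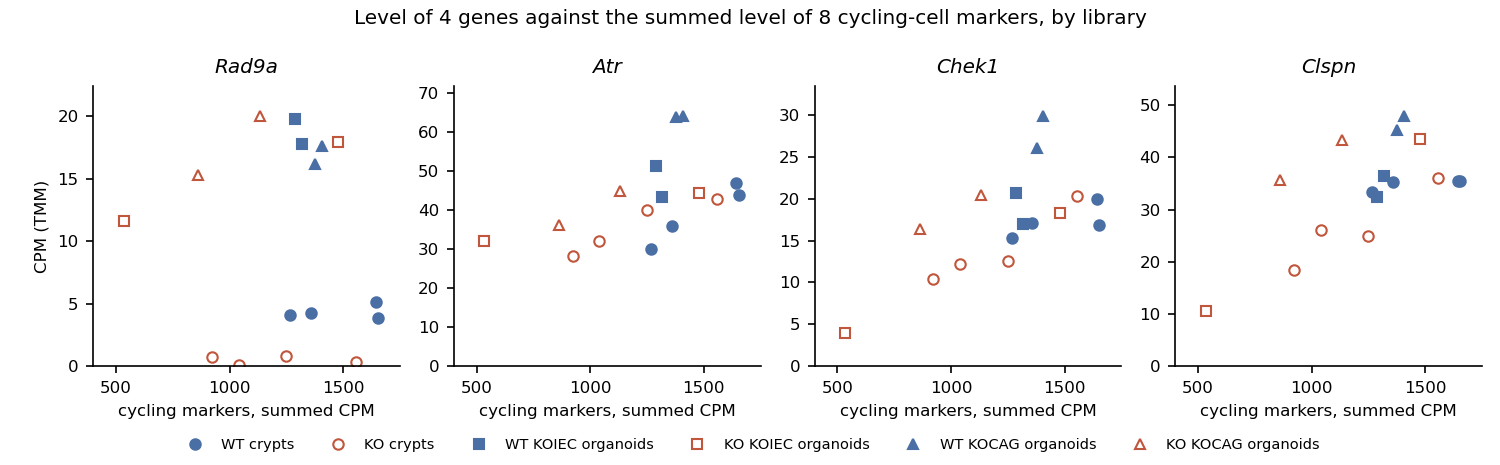
CPM (TMM-scaled) of Rad9a, Atr, Chek1 and Clspn in each of the 16 libraries against the summed CPM of 8 cycling-cell markers in the same library; filled symbols are WT, open symbols KO, circles crypts, squares KOIEC organoids and triangles KOCAG organoids. Chek1 and Clspn are lowest in the library with the lowest marker sum, KOIEC organoid replicate 2 (533 CPM), while the KOIEC crypt libraries lie near 0 for Rad9a at marker sums from 923 to 1556 CPM.

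Sums of other cell type markers differed between groups too, with overlapping ranges in the crypts. In the crypts 5 stem cell markers summed to 1493 to 2339 CPM in WT and 940 to 1506 CPM in KOIEC, and 6 enterocyte markers to 1438 to 6277 CPM in WT and 5429 to 12868 CPM in KOIEC. Their Paneth cell markers (6 genes) summed to 10430 to 18811 CPM in WT and 2051 to 18067 CPM in KOIEC. In KOIEC organoids the stem cell markers summed to 2426 to 3593 CPM in WT and 336 to 1468 CPM in KOIEC. Paneth cell markers there summed to 2474 to 4126 CPM in WT and 1819 to 2394 CPM in KOIEC. In KOCAG organoids the 6 enterocyte markers summed to 3616 to 3965 CPM in WT and 8214 to 10256 CPM in KOCAG. Paneth cell markers were also higher there (4927 to 5360 CPM in WT, 8214 to 8779 CPM in KOCAG), as were goblet and enteroendocrine cell markers. Stem cell markers were lower (2819 to 3327 CPM in WT, 2314 to 2713 CPM in KOCAG). None of the stem cell, Paneth cell or enterocyte markers was at 0 in every library of a group. The part of these cell types, and of the immune markers, in the members' values was not tested.

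The 5 genes most like Rad9a across the 16 libraries, among 12478 genes tested in all 3 experiments, were Ppm1f (r = 0.93), Mrm2 (r = 0.85), Cfi (r = 0.85), Rpl5-ps1 (r = 0.84) and Tut1 (r = 0.83). Their log2 fold changes in the crypts were between -1.80 (Rpl5-ps1) and -0.36 (Tut1), smaller than that of Rad9a, and 97.9% of the squared deviation of Rad9a came from the crypts.

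Among 24 other genes of the ATR and CHK1 pathway, 23 were tested in each experiment. In the crypts 3 were called, all lower: Cdc25b, a phosphatase that activates mitotic kinases (53.8 ± 5.85 to 33.9 ± 6.45 CPM, n = 4 each, log2 fold change -0.66, adjusted p = 0.0449, edgeR), Rhno1, a partner of the clamp (-0.44, adjusted p = 0.0499, edgeR), and Rfc2, a subunit of the clamp loader (-0.51, adjusted p = 0.0499, edgeR). Over all genes 2.66% were called lower, and the median of the 23 was -0.36. Of the 3 calls only Cdc25b was made with DESeq2 size factors, with library size only and in 1 fit of all libraries. None was made with a replicate block, with either covariate (cycling score or mitochondrial ribosomal RNA class), without WT replicates 2 and 3 together, or without any 1 of WT replicates 1, 2 and 3 and KOIEC replicates 2, 3 and 4. There were 6 calls without WT replicate 4, 7 with DESeq2 and 13 without KOIEC replicate 1, all lower. Over all genes 4.99%, 7.05% and 7.87% were called lower in these fits, and 13.6%, 18.5% and 18.0% in either direction.

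In KOIEC organoids 0 of the 23 were called by edgeR or DESeq2, with a median of -0.50. At an unadjusted p under 0.05 there were 0, against 650 of 13938 genes. Genes of this list were called lower without KOIEC replicate 1, which leaves 1 KOIEC library. In KOCAG organoids 10 of 23 were called, all lower, with a median of -0.31, against 13.4% of all genes called lower. Of the 23, 0 were called in 1 fit of all 16 libraries (1.10% of all genes called lower). With the cycling score as a covariate 1 was called, Zranb3 (2.15% of all genes called lower). DESeq2 called 4, Rad9b, Zranb3, Wee1 and Usp1 (7.77% of all genes called lower). The number also changed with the library left out, where each fit has 1 library in a group.

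The 5 of these 10 with the smallest adjusted p were Zranb3, a fork-remodelling translocase (18.8 ± 0.972 to 9.58 ± 1.59 CPM, n = 2 each, log2 fold change -0.99, adjusted p = 0.00247, edgeR), Wee1, the kinase that restrains CDK1 (-0.48, adjusted p = 0.00303, edgeR), Rad9b (-1.15, adjusted p = 0.00764, edgeR), Cdc25b (-0.37, adjusted p = 0.0233, edgeR) and Rpa3, a subunit of RPA (-0.38, adjusted p = 0.0239, edgeR). Rad9b, the paralog of Rad9a, was at 8.07 and 6.997 CPM in WT and 3.20 and 3.56 CPM in KOCAG organoids. In crypts it averaged 2.61 ± 0.477 CPM in WT against 1.91 ± 0.576 CPM in KOIEC (n = 4 each, log2 fold change -0.45, adjusted p = 0.279, edgeR). Hus1b, the paralog of Hus1, had 0 to 3 counts in every library and was not tested.

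Of 11 genes of the double-strand-break branch, 1 was called lower in the crypts, H2afx (-0.73, adjusted p = 0.0456, edgeR), 0 in KOIEC organoids (edgeR) and 8 in KOCAG organoids, all lower, against 2.66% of all genes called lower in the crypts and 13.4% in KOCAG organoids. The 3 with the smallest adjusted p in KOCAG organoids were Mdc1 (-0.62, adjusted p = 5.04e-04, edgeR), Atm (-0.61, adjusted p = 0.00108, edgeR) and H2afx (-0.51, adjusted p = 0.00525, edgeR). Their medians were -0.17, -0.33 and -0.38 in the 3 experiments. Of 5 subunits of the other RFC-like loaders 0, 0 and 1 were called, the last being Dscc1 in KOCAG organoids (-0.78, adjusted p = 0.0179, edgeR).

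The H2afx call in the crypts was absent in the same fits in which none of the 3 crypt calls of the ATR and CHK1 genes was made. The 8 calls of the double-strand-break branch in KOCAG organoids became 0 in 1 fit of all 16 libraries (1.10% of all genes called lower). They became 1 (Mdc1) with the cycling score as a covariate (2.15%) and 4 with DESeq2 (7.77%). Their number also changed with the library left out, where each fit has 1 library in a group. Dscc1 in KOCAG organoids was not called in 1 fit, with the cycling score, with DESeq2 or without WT replicate 1. In KOIEC organoids genes of both lists were called lower without KOIEC replicate 1, which leaves 1 KOIEC library. In the crypts 2 genes of each list were called lower without KOIEC replicate 1 (7.87% of all genes called lower). DESeq2 called 2 RFC-like subunits lower in the crypts, Chtf18 and Dscc1 (7.05% of all genes called lower).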

How the data were processed

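RNA-seq of 16 mouse libraries was analysed in 3 experiments. Per experiment the authors deposited 1 table of unnormalized counts with gene positions and lengths. The submitters' processing notes name HISAT2 2.0.5 and featureCounts 1.5.0-p3; strand use, genome build and annotation are not given in the sources used here. The members and gene lists were chosen with earlier results of these data known.

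KO was compared with WT within each table, with no replicate block. After filterByExpr and TMM scaling, edgeR 4.0.16 (R 4.3.3) gave quasi-likelihood tests, with p-values adjusted by Benjamini-Hochberg over each table's tested genes and calls made at an adjusted p under 0.05. The SE was taken from the F value. CPM is TMM-scaled, except in the crypt-to-organoid ratios, which use total counts and add 0.1 CPM. Log2 CPM carries a prior count of 2. Effects were compared between experiments as contrasts in 1 fit of 16 libraries. Methods were tested on simulated data. Alternatives were other scalings and filters, DESeq2 1.42.0 (the authors used DESeq2 too), a block, 1 fit of all libraries, covariates and leaving out libraries; leaving out WT crypt replicates 2 and 3 was chosen after seeing the data.

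Named genes were all 9 members, the called genes of each list (at most the 5 or 3 with the smallest adjusted p), the paralogs Rad9b and Hus1b, neighbours of Rad9a within 100 kb and the 5 genes most correlated with it. Neighbours that were not tested but had many organoid counts (Cdk2ap2, Pitpnm1, Pold4) and those at the ends of a range were named after their values were seen; 1 neighbour is not reported here by name. For 10 or more counts in every library, Rad9a in the crypts gave no value.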

Additional observations from a re-analysis of the deposited data

Results flagged for a closer look

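Clspn in WT crypts was marked because 1 library stood apart from the other 3. WT replicate 1 was at 33.3 CPM and the others at 35.4, 35.4 and 35.4 CPM, so the gap to the nearest library was 0.966 of the whole range, above Dixon's limit for 4 libraries. The range itself was narrow beside the KOIEC crypts (18.5 to 36.2 CPM). It was the only 1 of 18 crypt groups tested (9 genes, WT and KOIEC) that was marked, and chance marks about 1 in 20.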

How the results depend on the processing

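Rad9a in the crypts kept its direction in all alternatives that gave a value (log2 fold change -3.50 to -2.72 when single libraries were left out). Its difference in log2 CPM was -2.47 within the libraries of low mitochondrial ribosomal RNA (3 KOIEC against 1 WT). Within those of middle mitochondrial ribosomal RNA it was -4.04 (1 library against 1). At least 10 counts in every library left no value for Rad9a. Its log2 fold change was -0.70 to -0.068 in KOIEC organoids and -0.15 to 0.22 in KOCAG organoids when 1 library was left out. The number of members called ranged from 0 to 2 in the crypts (2, Chek1 and Clspn, without KOIEC replicate 1), from 0 to 4 in KOIEC organoids (4, Rad1, Topbp1, Chek1 and Clspn, without KOIEC replicate 1, which leaves replicate 2 alone and assumes that it varies like WT) and from 1 to 4 in KOCAG organoids (1, Atr, without WT replicate 1; 4, with Topbp1 and Clspn, without KOCAG replicate 2). In KOCAG organoids 0 members were called in 1 fit of all 16 libraries (adjusted p = 0.137 for Atr and 0.512 for Chek1), 0 with the cycling score as a covariate and 0 with a fold change of at least 2. The members whose effect differed between experiments ranged from 0 to 1 for crypts against KOIEC organoids (Chek1) and for KOIEC against KOCAG organoids (Clspn), both without KOIEC organoid replicate 1, and from 0 to 0 for crypts against KOCAG organoids; the causes were not tested.

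Log2 fold changes turned positive with the cycling score as a covariate in the crypts for Hus1 (0.046), Atr (0.32), Topbp1 (0.19) and Chek1 (0.12), in KOIEC organoids for Hus1 (0.17), Rad17 (0.023) and Clspn (0.12) and in KOCAG organoids for Rad1 (0.13), Topbp1 (0.12) and Clspn (0.086). That of Atr in the crypts was 0.11 when adjusted for mitochondrial ribosomal RNA class and 0.12 without WT replicates 2 and 3. With a library left out, Rad17 in the crypts ranged from -0.097 to 0.013 (positive without WT replicate 4 or KOIEC replicate 1). In KOIEC organoids Hus1 ranged from -0.96 to 0.30, Rad17 from -0.65 to 0.10, Topbp1 from -1.30 to 0.11 and Clspn from -1.71 to 0.34, lowest without KOIEC replicate 1 and highest without KOIEC replicate 2; Hus1 was also positive (0.10) without WT replicate 1.

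WT and KO libraries share replicate numbers, but same-numbered libraries did not deviate together in all pairs (correlations of deviations -0.044, 0.19, -0.40 and 0.43 in the crypts, 0.34 in KOIEC and 0.067 in KOCAG organoids), so the numbers were not taken as pairs. With a replicate block the members called were 0 in the crypts, 0 in KOIEC organoids and 3 of the 8 tested in KOCAG organoids. These 3 were Atr, Topbp1 (adjusted p = 0.0247, edgeR) and Chek1. Over all genes, the fits with a block called 4 in the crypts, 1 in KOIEC organoids and 36.3% of 13598 in KOCAG organoids.

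The background depends on the fit: 934 crypt genes were called (357 lower), 635 (311 lower) when scaled by library size, 1479 without a filter, 2490 with DESeq2, 1659 in 1 fit of all libraries, 4 with a block, 1 with the cycling covariate, 2 with the mitochondrial covariate, 1 without WT replicates 2 and 3 and 2 to 2468 with a library left out. In KOIEC organoids 1 was called (650 at an unadjusted p under 0.05), 223 without a filter, 27 with DESeq2, 18 in 1 fit, 10 with the cycling covariate and 0 to 2322 with a library left out. In KOCAG organoids 4278 were called, 2761 with DESeq2, 477 in 1 fit, 916 with the cycling covariate and 2789 to 5177 with a library left out. A member at the depth of Rad9a in KOIEC crypts is known only to within a few counts.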

Other observations

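The low surroundings of Rad9a in the crypts were among several such runs of genes. Of 10405 genes with at least 5 CPM in WT organoids of both experiments, 42 had at most 2 counts in every crypt library and 28 had 0 counts. The same question put to the organoid tables, for genes with at least 5 CPM in WT of the other 2 tables, gave 3 of 10164 genes in the KOIEC organoids and 0 of 10032 in the KOCAG organoids. Of the 72 genes with low surroundings, 22 were on chromosome 19, where the splicing factor gene Sf1 (log2 ratio of WT crypt to WT organoid level -11.34), Men1 (-9.54) and Ehd1 (-9.38) formed another run. On chromosome 16 Ranbp1 (-9.81) and Dgcr8 (-9.04), on chromosome 2 Celf1 (-10.72) and Ndufs3 (-9.74) and on chromosome 8 Pik3r2 (-9.90) lay in similar runs. These genes were chosen after their values were seen, and the ratios of genes near 0 counts are set by the 0.1 CPM added.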
